A study of Sus scrofa with 11 samples.

Results

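The Toll-like receptors are a family of pattern recognition receptors, and all 10 family genes sought by symbol, TLR1 to TLR10, were found among the 30376 genes quantified by RNA sequencing of pig skin wounds. Total RNA was taken on day 10 from 7 full-thickness wounds of a diabetic Yucatan minipig and from 4 wounds of a non-diabetic Yucatan minipig, with 1 library of polyadenylated RNA per wound. The diabetic minipig was a female, 6 months of age when streptozotocin, a toxin of the insulin-producing beta cells, was infused into a vein. It received insulin for weeks and none from a week before wounding. The non-diabetic minipig was also female, was given wounds by the same procedure on the back, and its age is not given in the sources used here. Since each group was 1 minipig, diabetes and the individual animal cannot be told apart, and every p-value given here rests on the spread among wounds that share an animal.

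Each Toll-like receptor binds a microbial product, or a molecule released from damaged tissue, and passes the signal on through adaptor proteins, chiefly MYD88 and TICAM1 (also called TRIF), to the transcription factors NF-kappaB and the interferon regulatory factors. TLR1, TLR2, TLR4, TLR5, TLR6 and TLR10 act at the cell surface, whereas TLR3, TLR7, TLR8 and TLR9 read nucleic acids in endosomes. In skin they are found on keratinocytes, resident and recruited macrophages, neutrophils, dendritic cells, endothelial cells and fibroblasts, and in healing wounds they set off cytokine release.

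Values are FPKM, which are reads per kilobase of gene and per unit of library size, as the authors deposited them. The diabetic libraries held 28314785 to 40168372 reads on genes and the non-diabetic libraries 32961018 to 36872400. On the first principal component, diabetic replicate 4 and non-diabetic replicate 1 stood apart from the other 9 wounds, and their summed FPKM over 9 keratinocyte markers was 40.2 and 284, against 1542 to 6612 in the others. The summed level of 8 skeletal muscle markers was 1528 in diabetic replicate 3 and 5.80 to 10.5 elsewhere. The summed level of 5 markers of all leukocytes ranged from 149 to 204 in diabetic wounds and from 144 to 198 in non-diabetic wounds. In whole tissue, fewer cells of a type and less RNA per cell cannot be told apart.

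In the RefSeq annotation of Sscrofa11.1, TLR10, TLR1 and TLR6 were neighbours on the minus strand of chromosome 8. TLR10 spanned chr8:30124895-30134854, TLR1 spanned chr8:30147600-30155454 and TLR6 spanned chr8:30159744-30180650. The coding sequences of TLR1 and TLR6 were 77.8% identical, against 63.4% for TLR1 and TLR10 and 63.8% for TLR6 and TLR10, and they shared a run of 321 identical bases. Of all 100-base windows of the exons, 13.8% of those of TLR1 and 8.47% of those of TLR6 were found in the other gene, and none of those of the other 8 receptors was found in another family gene. Reads from such windows fit both genes, and how the authors' counting treated them is not given in the sources used here, so the split of reads between TLR1 and TLR6 is uncertain. The following 120 bases of coding sequence are shown because they cross the edge of the longest shared run, with the first 60 bases before it and the last 60 within it. They are written 5′ to 3′ on the minus strand of Sscrofa11.1, as chr8:30148759-30148878 for TLR1, chr8:30163072-30163191 for TLR6 and chr8:30126190-30126309 for TLR10, and capitals mark bases that differ from TLR1.
TLR1: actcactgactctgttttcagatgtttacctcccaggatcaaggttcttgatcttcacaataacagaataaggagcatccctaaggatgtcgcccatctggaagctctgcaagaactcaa
TLR6: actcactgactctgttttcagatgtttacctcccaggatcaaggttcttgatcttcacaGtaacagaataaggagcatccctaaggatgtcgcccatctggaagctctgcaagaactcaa
TLR10: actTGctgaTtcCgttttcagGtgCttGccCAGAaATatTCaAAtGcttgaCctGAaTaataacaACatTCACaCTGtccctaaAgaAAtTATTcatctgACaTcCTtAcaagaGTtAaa
TLR6 differed from TLR1 at 1 of these 120 bases, and TLR10 differed at 47.

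The other genes lay apart. TLR2 was on chromosome 8 from 75416257 to 75428370, TLR3 on chromosome 15 from 46966262 to 46977774, TLR4 on chromosome 1 from 258044610 to 258054641, and TLR5 on chromosome 10 from 19387666 to 19410024. TLR7, on the X chromosome from 9573178 to 9576987, sat within the span of TLR8, from 9551284 to 9616762 on the same strand, without sharing exon bases with it. TLR9, on chromosome 13 from 34353444 to 34370990, had 1048 of its 4361 exon bases (24.0%) in common with exons of TWF2, which encodes the actin-binding protein twinfilin 2 and lies on the same strand. Reads in that overlap can belong to either gene, so the level of TLR9 is uncertain. The uncertainty is not limited to 24.0% of that level, since TWF2 had the higher mean in both groups. How such reads were counted is not given in the sources used here.

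Messenger RNA of all 10 receptors was detected in each of the 11 wounds, and TLR4, the receptor for bacterial lipopolysaccharide, had the highest level in both groups. TLR4 averaged 10.1 ± 1.17 FPKM (SD, n = 7) in the diabetic group and 9.29 ± 1.30 FPKM (SD, n = 4) in the non-diabetic group. TLR2, the receptor for bacterial lipoproteins, came second with 5.47 ± 1.11 and 5.52 ± 0.338 FPKM. TLR3 was next, followed by TLR1, TLR7, TLR6, TLR8, TLR5, TLR9 and TLR10 in the order of the mean over all wounds. TLR4 exceeded TLR2, and TLR2 exceeded TLR3, in 11 of 11 wounds. Below these, neighbours in the order mostly did not differ beyond their spread. TLR3 exceeded TLR1 in 9 of 11 wounds, TLR1 exceeded TLR7 in 5, TLR7 exceeded TLR6 in 8 and TLR6 exceeded TLR8 in 6. TLR8 and TLR5 traded places between the groups, since TLR8 was the higher in 7 of 7 diabetic wounds and TLR5 in 4 of 4 non-diabetic wounds. TLR5 exceeded TLR9 in 8 of 11 wounds, and TLR9 exceeded TLR10 in 9. The levels are per length. Ranked by reads with no correction for length, 4 of the 10 receptors kept their place, and TLR8, which has the longest exons (7569 bases), moved up to rank 3.

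**Figure D1:**
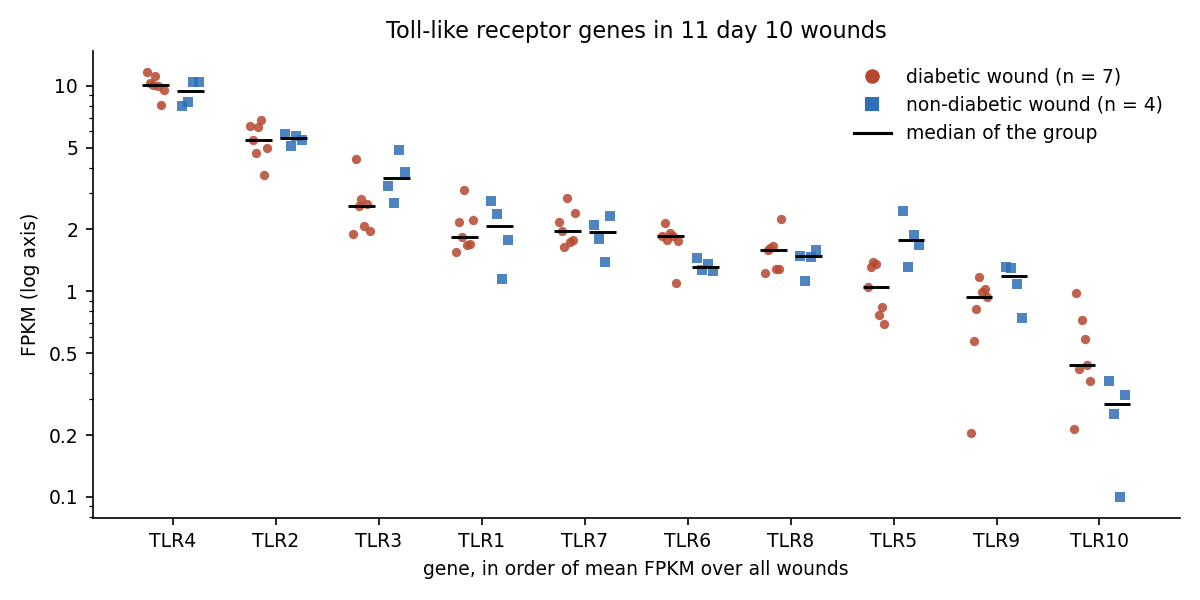
FPKM (log axis) of the 10 Toll-like receptor genes in each wound, ordered by the mean over all 11 wounds. Circles are the 7 diabetic wounds, squares the 4 non-diabetic wounds and black lines the group medians, and TLR4 lies highest at 7.98 to 11.7 FPKM while TLR10 lies lowest at 0.1004 to 0.986 FPKM.

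Whether any receptor differed between diabetic and non-diabetic wounds was tested with limma on log2(FPKM + 0.5) over the 13956 genes with at least 0.5 FPKM in at least 4 libraries. Calls required both a log2 fold change beyond 0.5 in either direction and a Benjamini-Hochberg adjusted p under 0.05. Of the 9 receptors that passed the filter, 0 were called higher, against 1.35% of all genes tested, and 0 were called lower, against 1.66%. At an unadjusted p under 0.05, limma gave 2 of the 9, TLR5 and TLR6, against 18.4% of all genes tested, and of these TLR5 also passed the fold threshold, against 7.13% of all genes tested. With voom on the recovered reads the call count was also 0, with TLR5 alone under an unadjusted p of 0.05. In 0 of the 9 did all diabetic wounds lie on the same side of all non-diabetic wounds, against 5.65% of all genes tested. The median log2 fold change of the 9 receptors was 0.03, with 5 above 0 and 4 below, beside 0.01 for all genes tested. The exact permutation test (two-sided, all 330 ways to divide the wounds 7 to 4) gave p under 0.05 for 2 receptors, TLR5 and TLR6, against 18.1% of all genes tested. TLR10 reached 0.5 FPKM in only 3 wounds, did not pass the filter and is described by its values and the permutation test.

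**Figure D2:**
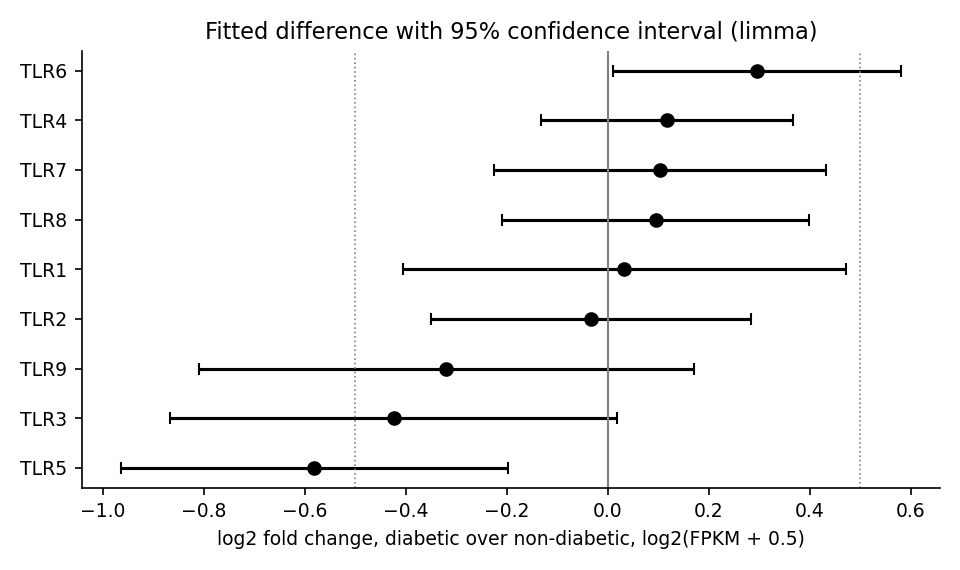
Log2 fold change (diabetic over non-diabetic wounds, on log2(FPKM + 0.5)) of the 9 tested receptors, with bars for the 95% confidence interval from limma. Dotted lines mark the fold threshold of 0.5 in either direction, and only the intervals of TLR5 (-0.96 to -0.20) and TLR6 (0.01 to 0.58) exclude 0.

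TLR5, the receptor for bacterial flagellin, showed the lowest fold change of the family. Its level in diabetic wounds ran from 0.690 to 1.38 FPKM with a median of 1.05. In non-diabetic wounds it was 2.46, 1.31, 1.88 and 1.67 FPKM in replicates 1 to 4. The groups overlapped only through non-diabetic replicate 2, which lay below diabetic replicates 2, 3 and 4. The means were 1.06 ± 0.296 FPKM (SD, n = 7) and 1.83 ± 0.482 FPKM (SD, n = 4), with 92 to 304 and 215 to 364 reads per wound. The log2 fold change was -0.58 (standard error 0.17, limma adjusted p = 0.0987), and the two-sided exact permutation test gave p = 0.0152. The TLR5 level was highest among the non-diabetic wounds in replicate 1, a wound with few keratinocyte transcripts. Without that wound the log2 fold change was -0.46 (limma adjusted p = 0.258) and the exact permutation p was 0.05.

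TLR6, which pairs with TLR2 to bind diacylated lipopeptides, leaned the other way. It ran from 1.10 to 2.15 FPKM in diabetic wounds, with a median of 1.86, and was 1.46, 1.27, 1.36 and 1.25 FPKM in non-diabetic replicates 1 to 4. In 6 of 7 diabetic wounds it exceeded all non-diabetic wounds, while diabetic replicate 6 lay below them all. The means were 1.78 ± 0.326 FPKM (SD, n = 7) and 1.34 ± 0.0934 FPKM (SD, n = 4). The log2 fold change was 0.30 (standard error 0.13, limma adjusted p = 0.251), with an exact permutation p = 0.0455. Without diabetic replicate 6 the log2 fold change was 0.38 (limma adjusted p = 0.0517) and the exact permutation p was 0.00476. Without any 1 of diabetic replicates 1 to 5 or non-diabetic replicates 1 to 4, the exact permutation p lay between 0.05 and 0.0833.

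TLR2 and TLR1, which together bind triacylated lipopeptides, had nearly the same mean in both groups. TLR2 ran from 3.69 to 6.84 FPKM in diabetic wounds (median 5.41) and was 5.85, 5.08, 5.70 and 5.43 FPKM in non-diabetic replicates 1 to 4. The non-diabetic values all fell inside the diabetic range, and the log2 fold change was -0.03 (95% confidence interval -0.35 to 0.28, limma adjusted p = 0.936). TLR1 ran from 1.55 to 3.11 FPKM in diabetic wounds (median 1.84) and was 2.74, 2.39, 1.15 and 1.77 FPKM in non-diabetic wounds. Its highest value was in diabetic replicate 4 and its highest non-diabetic value in replicate 1, the same pair of wounds with few keratinocyte transcripts. TLR9 too was highest of each group in these wounds. Non-diabetic replicate 1 was also the highest of its group for TLR2, TLR5, TLR6 and TLR10. The log2 fold change of TLR1 was 0.03 (95% confidence interval -0.41 to 0.47, limma adjusted p = 0.954). The intervals allow a difference of up to 0.35 (TLR2) and 0.47 (TLR1) on the log2 scale.

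TLR10, a surface receptor of the same group whose ligand is less well defined, had the fewest reads of the family, 22 to 126 in the diabetic libraries and 10 to 35 in the others. Its level ran from 0.215 to 0.986 FPKM in diabetic wounds, with a median of 0.439, and was 0.366, 0.253, 0.1004 and 0.314 FPKM in non-diabetic replicates 1 to 4. Diabetic replicates 2 to 6 lay above all non-diabetic wounds, while replicate 7 was level with the highest of these and replicate 1 below most of them. The means were 0.534 ± 0.257 FPKM (SD, n = 7) and 0.258 ± 0.115 FPKM (SD, n = 4), a difference of 0.42 on log2(FPKM + 0.5) with an exact permutation p = 0.0606. Without diabetic replicate 1 the exact permutation p was 0.0190, the lowest over all single wounds left out. The next lowest was 0.0583, without non-diabetic replicate 1, and the highest was 0.167. When the filter was lowered to 0.1 FPKM, which let TLR10 enter the fit, its limma adjusted p was 0.256. B cells are known to express TLR10. The summed level of 8 B cell markers was 7.93 to 14.6 FPKM in diabetic wounds and 3.42 to 4.36 FPKM in non-diabetic wounds. By limma 3 of the 5 tested markers were called higher, against 1.35% of all genes tested. The 2 most abundant were CD79A, a part of the B cell receptor, at 4.34 ± 1.24 and 0.919 ± 0.263 FPKM, and FCRLA, at 2.67 ± 0.585 and 0.813 ± 0.277 FPKM. The part of B cells in the TLR10 values was not tested.

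Set against TLR2 in the same wound, its partner TLR6 stood at a ratio of 0.272 to 0.397 in diabetic wounds and 0.231 to 0.2505 in non-diabetic wounds. These ratios did not overlap between the groups. They are given as a description, with no share over other gene pairs beside them. The split of reads between TLR1 and TLR6 is also uncertain. TLR1 over TLR6 was 0.829 to 1.62 in diabetic and 0.846 to 1.88 in non-diabetic wounds. TLR1 over TLR2 was 0.243 to 0.496 in diabetic and 0.202 to 0.470 in non-diabetic wounds. TLR10 over TLR2 had a mean of 0.0999 and 0.0470, with overlapping ranges.

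For TLR4, the diabetic wounds ran from 8.05 to 11.7 FPKM, with a median of 10.0. The non-diabetic wounds had 7.98, 8.36, 10.4 and 10.4 FPKM in replicates 1 to 4, so that the groups overlapped almost entirely. With 757 to 1649 reads per diabetic wound, TLR4 had the smallest relative spread among diabetic wounds (coefficient of variation 11.5%). The log2 fold change was 0.12 (95% confidence interval -0.13 to 0.37, limma adjusted p = 0.640).

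Among the endosomal receptors, TLR3, which binds double-stranded RNA, and TLR9, described below, were lower in diabetic wounds by the point estimate. TLR3 ran from 1.91 to 4.41 FPKM in diabetic wounds (median 2.59) and was 3.25, 2.69, 4.87 and 3.82 FPKM in non-diabetic replicates 1 to 4. The overlap came from diabetic replicate 2, at 4.41 FPKM, and from diabetic replicate 4 (2.80 FPKM), which lay above non-diabetic replicate 2. The means were 2.63 ± 0.863 FPKM (SD, n = 7) and 3.66 ± 0.928 FPKM (SD, n = 4), a log2 fold change of -0.42 (standard error 0.20, limma adjusted p = 0.295) with an exact permutation p = 0.0788. Without diabetic replicate 2 the exact permutation p was 0.00952 and the limma adjusted p 0.0927. Leaving out non-diabetic replicate 2 also took the exact permutation p of TLR3 below 0.05, while over all single wounds left out it ranged up to 0.217.

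TLR7 and TLR8, the receptors for single-stranded RNA, had levels that overlapped between the groups. TLR7 ran from 1.65 to 2.85 FPKM in diabetic wounds (median 1.96) and was 2.09, 1.79, 1.39 and 2.32 FPKM in non-diabetic wounds. TLR8 ran from 1.23 to 2.26 FPKM (median 1.59) and was 1.49, 1.12, 1.48 and 1.58 FPKM in non-diabetic wounds. The log2 fold change was 0.10 for TLR7 (95% confidence interval -0.22 to 0.43, limma adjusted p = 0.773) and 0.10 for TLR8 (95% confidence interval -0.21 to 0.40, limma adjusted p = 0.775). The ratio of TLR7 to TLR8 had a mean of 1.36 ± 0.287 in diabetic and 1.35 ± 0.286 in non-diabetic wounds.

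TLR9, which binds unmethylated CpG DNA, was the most variable of the tested receptors in diabetic wounds, with a coefficient of variation of 40.3%. It ran from 0.205 to 1.18 FPKM in diabetic wounds (median 0.934) and was 1.31, 1.30, 1.08 and 0.742 FPKM in non-diabetic replicates 1 to 4, on 32 to 163 and 126 to 181 reads. Diabetic replicates 1 and 2, at 0.205 and 0.575 FPKM, lay below all non-diabetic wounds. The log2 fold change was -0.32 (95% confidence interval -0.81 to 0.17, limma adjusted p = 0.498), with an exact permutation p = 0.212. Without diabetic replicate 1 the log2 fold change of TLR9 was -0.18 (limma adjusted p = 0.556). Diabetic replicates 1 to 3, whose library names begin with L, held 0.205 to 0.817 FPKM of TLR9, and replicates 4 to 7, whose names begin with R, held 0.934 to 1.18 FPKM, without overlap. For each of the other 9 receptors the ranges of the L and R wounds overlapped. The split of TLR9 is given as a description, with no share over all genes beside it. What the letters stand for is not given in the labels. TLR9 exons are 62.6% G and C, against 38.4 to 48.4% for the other 9 receptors. This lies just under the tenth of tested genes with the highest GC content, which begins at 63.6%. For the tenth of genes with the highest GC content, the median deviation from the mean of the diabetic group was taken on the log2 scale. It was -0.23 in diabetic replicates 1 and 2, 0.02 in replicate 3 and 0.06 to 0.17 in replicates 4 to 7. Plasmacytoid dendritic cells express TLR7 and TLR9, and the summed level of 5 of their markers was 31.1 to 42.6 FPKM in diabetic and 29.5 to 45.6 FPKM in non-diabetic wounds. Of the 5, IL3RA was called higher (16.6 ± 2.87 and 8.88 ± 1.35 FPKM, limma adjusted p = 0.00644), while TCF4 had 1.94 ± 0.839 and 4.01 ± 1.25 FPKM (limma adjusted p = 0.0733) and PLAC8 11.5 ± 3.60 and 15.7 ± 5.72 FPKM. The part of these cells in the TLR9 level was not tested. The part of base composition in the spread of TLR9 between wounds was not tested. After a per-library correction for GC content the log2 fold change of TLR9 was -0.42 (limma adjusted p = 0.187). TWF2, with which TLR9 shares exon bases, had 10.7 ± 1.38 FPKM (SD, n = 7) and 8.33 ± 0.997 FPKM (SD, n = 4).

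The family as a whole summed to 28.1 ± 3.31 FPKM (SD, n = 7) with diabetes and 28.3 ± 1.85 FPKM (SD, n = 4) without. TLR4 made up 36.1% ± 2.65 and 32.8% ± 3.73 of that sum, and TLR2 19.4% ± 3.03 and 19.5% ± 0.726. The 6 surface receptors summed to 21.0 and 20.2 FPKM, and the 4 endosomal receptors to 7.09 and 8.08 FPKM. The endosomal share was 25.4% ± 3.63 in diabetic and 28.5% ± 1.25 in non-diabetic wounds, and over the 11 wounds it lay between 19.5% and 30.0%. TLR3 alone gave 9.38% ± 2.77 and 12.8% ± 2.70 of the family sum.

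**Figure D3:**
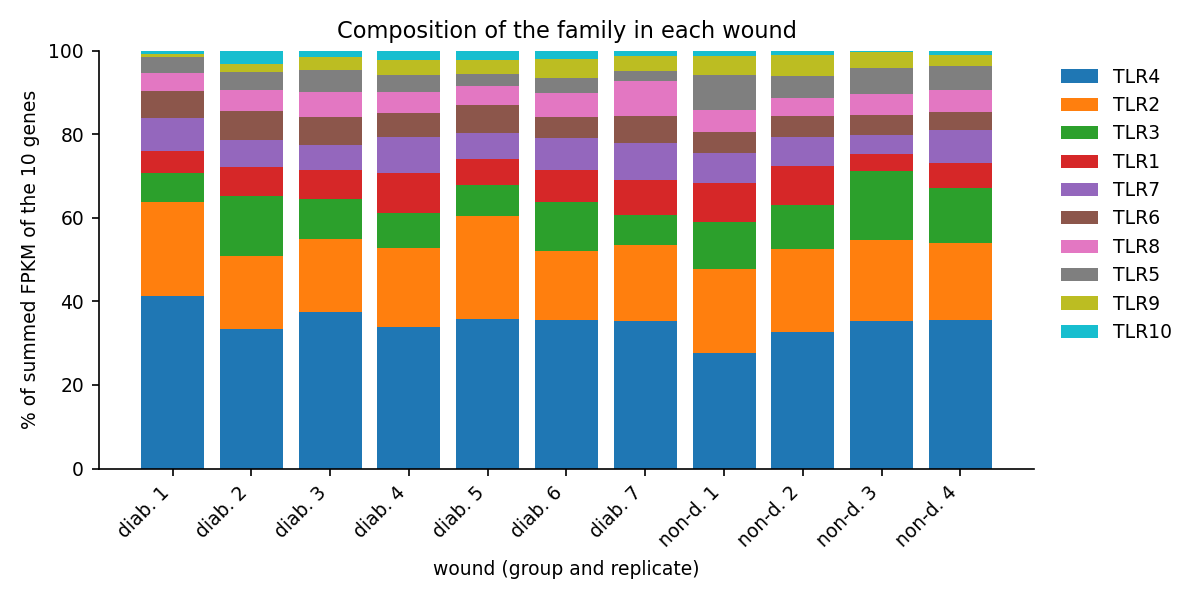
Share of each receptor in the summed FPKM of the 10 genes (vertical axis, percent), with 1 stacked bar for each of the 7 diabetic and 4 non-diabetic wounds. TLR4 and TLR2 form the lower part of every bar, with TLR4 at 27.5 to 41.3% and TLR2 at 16.4 to 24.6%.

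The genes that act with the receptors were grouped into 7 lists of 98 genes, of which 94 passed the filter, and 3 of the 94 were called, with 2 higher and 1 lower, against 3.00% of all genes tested, so the share called was near that of all genes. All 3 were on the list of co-receptors and chaperones, whose 10 genes were all tested and had a median log2 fold change of 0.02. The adaptors (7 tested) had 0 calls and 0 genes under an unadjusted p of 0.05 by limma. The kinases and ubiquitin enzymes (20 tested) had 0 calls and 3 such genes, the NF-kappaB and interferon regulatory factors (10 tested) 0 and 1, the negative regulators (15 of 16 tested) 0 and 2, the genes induced by the receptors (20 of 23 tested) 0 and 2, and the endogenous ligands (12 tested) 0 and 2. Over all genes tested, 18.4% had an unadjusted p under 0.05. With voom the call counts of these lists were also 0, except for FN1 among the ligands. The medians of the 7 lists lay between -0.09 and 0.20 on the log2 scale, beside 0.01 for all genes tested. The groups did not overlap for 6 of the 94 genes, namely CD14, CD36, TRIL, RIPK1, CD40 and FN1. Over all genes tested the share was 5.65%, so the share in the lists was near that of all genes.

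**Figure D4:**
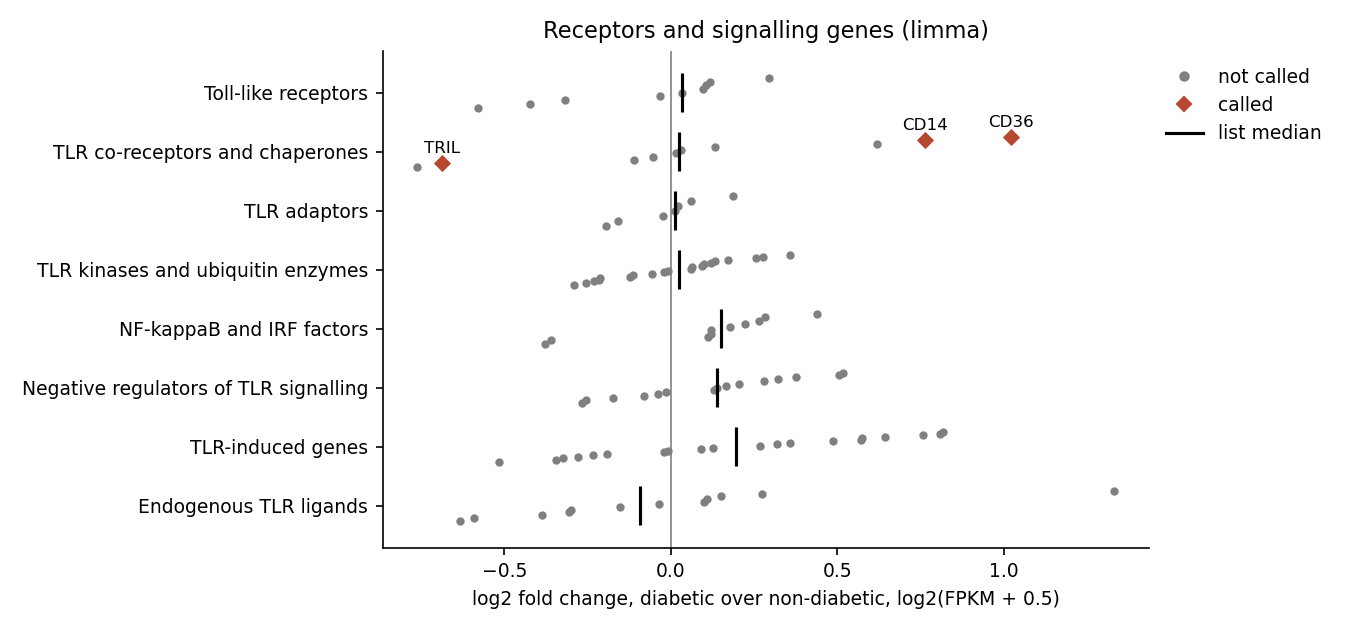
Log2 fold change (diabetic over non-diabetic wounds, on log2(FPKM + 0.5)) of every tested receptor and pathway gene, 1 row per list. Grey dots are genes not called, diamonds genes called by limma and black bars list medians, and the 3 called genes, CD36, CD14 and TRIL, all lie in the row of co-receptors and chaperones.

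CD14, the co-receptor that hands lipopolysaccharide to TLR4 and also serves TLR2 and TLR3, ran from 29.0 to 53.7 FPKM in diabetic wounds with a median of 37.6. It was 27.3, 21.5, 20.2 and 25.9 FPKM in non-diabetic replicates 1 to 4. Every diabetic wound lay above every non-diabetic wound, and the means of 41.4 ± 9.98 FPKM (SD, n = 7) and 23.7 ± 3.40 FPKM (SD, n = 4) gave a log2 fold change of 0.76 (standard error 0.18, limma adjusted p = 0.0390). The call of CD14 was kept when diabetic replicate 1 or 2 was left out and lost when any other single wound was left out, with a limma adjusted p of 0.0219 to 0.136. Monocytes and macrophages carry CD14, and the summed level of 10 markers of these cells was 789 to 1768 FPKM in diabetic and 513 to 950 FPKM in non-diabetic wounds, with 10 of 10 fold changes above 0, a median of 0.54 and 1 called. The most abundant, C1QB and C1QC, which encode complement C1q chains, had 322 ± 113 and 196 ± 54.2 FPKM, and 313 ± 99.3 and 194 ± 44.1 FPKM, and were not called. The part of macrophage number in the CD14 level was not tested.

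CD36, a scavenger receptor that works with TLR2 and TLR6 in sensing diacylglycerides and with TLR4 and TLR6 in sensing oxidised lipoprotein, was called higher with the largest fold change of the 3. It ran from 11.8 to 20.001 FPKM in diabetic wounds (median 13.4) and was 5.94, 7.56, 7.48 and 7.87 FPKM in non-diabetic wounds. The groups did not overlap. The means were 15.4 ± 3.40 FPKM (SD, n = 7) and 7.21 ± 0.865 FPKM (SD, n = 4), a log2 fold change of 1.02 (standard error 0.16, limma adjusted p = 0.00523), and the call was kept without any 1 of the 11 wounds (limma adjusted p 0.00428 to 0.0238). CD36 is also a fatty acid transporter of fat cells. Of 6 adipocyte markers, 5 had a fold change below 0, with a median of -0.99 over the 6. Only FABP4, a fatty acid binding protein also found in macrophages and endothelium, lay above 0, with 403 ± 126 and 210 ± 58.6 FPKM (limma adjusted p = 0.0607). ADIPOQ, the next most abundant, had 64.1 ± 42.6 and 106 ± 38.5 FPKM. By limma 0 were called higher and 1, LEP, lower, against 1.66% of all genes tested. LEP reached 0.5 FPKM only in the non-diabetic wounds (0.579 to 2.35 FPKM), so it passed the filter only through the group where it was higher. Macrophages carry CD36 as well, and their markers are given with CD14. The part of either cell type in the CD36 level was not tested.

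TRIL, a leucine-rich repeat protein that assists TLR4 and TLR3, was called lower. It ran from 0.996 to 2.09 FPKM in diabetic wounds (median 1.60) and was 2.77, 3.23, 2.77 and 2.37 FPKM in non-diabetic wounds. The highest diabetic value was under the lowest non-diabetic value. The means were 1.56 ± 0.394 FPKM (SD, n = 7) and 2.78 ± 0.351 FPKM (SD, n = 4), with a log2 fold change of -0.69 (standard error 0.15, limma adjusted p = 0.0338). The call of TRIL was lost without diabetic replicate 3 (limma adjusted p = 0.0685) and without any 1 of the 4 non-diabetic wounds (limma adjusted p 0.0578 to 0.101).

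**Figure D5:**
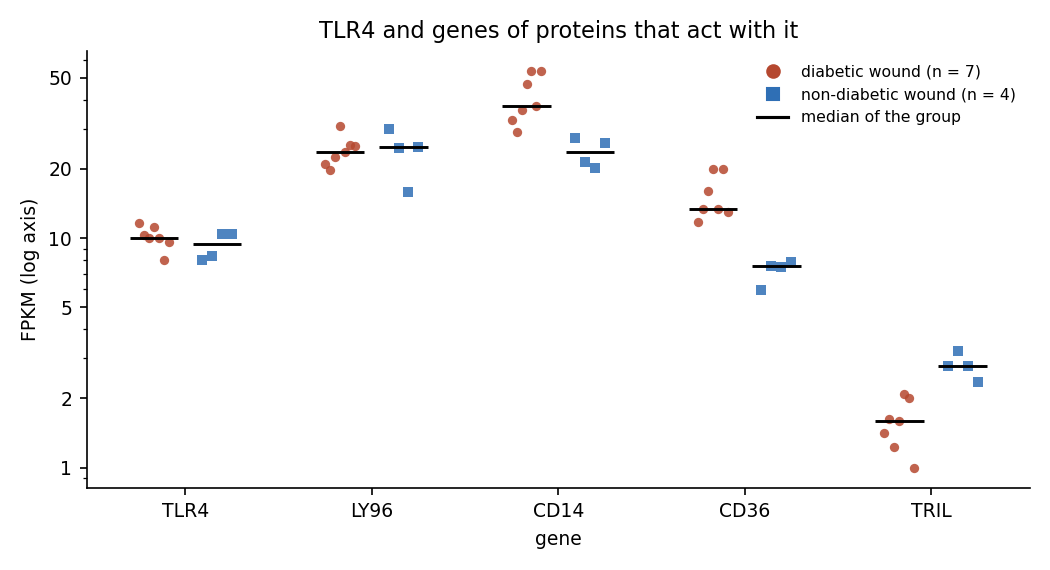
FPKM (log axis) of TLR4 and of 4 genes whose proteins act with it, in each wound. Circles are the 7 diabetic wounds, squares the 4 non-diabetic wounds and black lines the medians, and the groups overlap for TLR4 and LY96 but are apart for CD14 (lowest diabetic value 29.0, highest non-diabetic value 27.3), CD36 and TRIL.

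The remaining partners of the receptors were not called. LY96, or MD-2, the subunit through which TLR4 binds lipopolysaccharide, had 24.0 ± 3.59 FPKM (SD, n = 7) and 23.9 ± 5.90 FPKM (SD, n = 4), so that LY96 messenger exceeded TLR4 messenger per length in both groups. UNC93B1, the carrier of the endosomal receptors, had 9.82 ± 1.43 and 10.7 ± 2.05 FPKM. HSP90B1, the chaperone that folds most of the family, had 136 ± 13.5 and 135 ± 21.5 FPKM, and its cofactor CNPY3 had 8.14 ± 1.31 and 8.47 ± 1.57 FPKM. LY86, or MD-1, which partners the receptor homologue CD180, had 12.3 ± 2.61 and 7.85 ± 1.89 FPKM (log2 fold change 0.62, limma adjusted p = 0.0841).

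The adaptors had fold changes close to 0. MYD88, the adaptor of every receptor of the family but TLR3, had 22.6 ± 1.53 FPKM (SD, n = 7) and 21.7 ± 2.203 FPKM (SD, n = 4), a log2 fold change of 0.06 (limma adjusted p = 0.759). TICAM1, the adaptor of TLR3 and of internalised TLR4, had 5.40 ± 1.399 and 5.51 ± 2.25 FPKM, and TIRAP, which bridges MYD88 to TLR2 and TLR4, had 1.47 ± 0.213 and 1.78 ± 0.401 FPKM. SLC15A4, an endosomal transporter needed for signalling of TLR7 and TLR9, had 11.5 ± 1.76 and 9.94 ± 0.843 FPKM.

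Downstream, RIPK1, a kinase of the TICAM1 branch, had 22.4 ± 2.22 FPKM (SD, n = 7) against 18.4 ± 0.907 FPKM (SD, n = 4). Its groups did not overlap, but its log2 fold change of 0.28 was below the threshold (limma adjusted p = 0.113). UBE2V1, a cofactor of ubiquitin chain building, had 44.9 ± 1.98 and 40.8 ± 1.29 FPKM. RELA, the NF-kappaB subunit p65, had 38.8 ± 6.13 and 31.9 ± 2.11 FPKM, and IRF3, the factor of interferon induction, had 40.3 ± 5.43 and 34.3 ± 2.89 FPKM, with limma adjusted p of 0.278 and 0.329. Of the inhibitors, TOLLIP had 88.6 ± 19.3 and 66.7 ± 2.99 FPKM and NFKBIA, which holds NF-kappaB in the cytoplasm, 75.2 ± 28.3 and 63.3 ± 29.7 FPKM.

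Among the genes that the receptors induce, the cytokines varied widely between wounds of the same animal. CCL2, the monocyte chemoattractant, had 71.8 ± 21.8 FPKM (SD, n = 7) and 74.1 ± 50.7 FPKM (SD, n = 4), and NFKBIZ had 25.05 ± 5.53 and 31.3 ± 6.12 FPKM. The cytokine genes TNF, IL1B and IL6 were chosen for mention after their values were seen. TNF ran from 0.280 to 2.25 FPKM in diabetic and from 0.224 to 0.478 FPKM in non-diabetic wounds (limma adjusted p = 0.275). IL1B ran from 0.320 to 17.2 and from 0.499 to 3.49 FPKM, and IL6 from 3.25 to 67.5 and from 7.03 to 49.3 FPKM. IFNB1, the interferon-beta gene, was listed at 0 in every wound.

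Among the endogenous ligands, S100A9 and S100A12, calcium-binding proteins of neutrophils and stressed keratinocytes that act on TLR4 or neighbouring receptors, had the highest levels. S100A9 ran from 8.96 FPKM in the lowest diabetic wound to 3116 FPKM in the highest, and from 72.9 to 3887 FPKM in non-diabetic wounds. S100A12 ran from 17.5 to 4751 and from 133.0 to 5348 FPKM. The lowest value of both genes in each group belonged to diabetic replicate 4 and non-diabetic replicate 1, where the keratinocyte markers were also lowest. FN1, fibronectin, whose extra domain A is a TLR4 ligand, had non-overlapping groups, with 590 ± 107 and 883 ± 121 FPKM, and a log2 fold change of -0.59 whose limma adjusted p of 0.0567 missed the threshold.

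The genes whose pattern across the 11 wounds was most like that of a receptor were found by the root mean square distance between standardised log2(FPKM + 0.5) values after the group means had been taken out, for which the median of all genes was 1.407 to 1.435. The 3 nearest genes are given for each of the 9 receptors that passed the filter, and TLR10 was left out. TLR8 was nearest to CD4 (0.527), the co-receptor of helper T cells, then to LOC100519643 (0.542) and SMIM10L1 (0.578). TLR7 was nearest to SMIM11A (0.411), SLA-DRA (0.456), a class II antigen presentation gene, and FLI1 (0.463), and TLR1 to CD22 (0.375), an inhibitory B cell receptor, C14H10orf128 (0.405) and LOC106507362 (0.413). TLR2 was nearest to FAM133B (0.276), ZNF280C (0.375) and C3H16orf52 (0.378), and TLR4 to CUL2 (0.276), EIF5A2 (0.366) and ZNF287 (0.378). TLR3 was nearest to ZC3H6 (0.4098), LOC106505476 (0.456) and PIK3CD (0.459), and TLR5 to IPP (0.4795), MFSD9 (0.4825) and SLC16A9 (0.493). TLR6 was nearest to SPIN3 (0.314), HAUS3 (0.339) and GTF2H4 (0.4275), and TLR9 to SALL2 (0.139), SLC2A11 (0.1997) and TMEM94 (0.211). Among these 9 receptors, TLR2 and TLR6 were the closest pair (0.682), followed by TLR1 and TLR7 (0.782). These distances describe 11 libraries that share their depth and tissue make-up within each wound.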

How the data were processed

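Total RNA from biopsy punches of 11 wounds was converted to directional libraries and sequenced on a NovaSeq X Plus. The authors used fastp for trimming and HISAT2 2.2.1 for mapping to Sscrofa11.1, assembled with StringTie 2.2.3, counted with featureCounts 2.0.6 and deposited FPKM values. The annotation release, strand setting, treatment of shared reads and FPKM formula are not given in the sources used here. For 100% of values, FPKM times length came within 0.05 of a whole number of reads on a common step per library. These recovered reads gave the depth per wound, which limits receptors with few reads.

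Genes with at least 0.5 FPKM in at least 4 libraries were fitted with limma 3.58.1 (R 4.3.3; trend, Benjamini-Hochberg adjustment) on log2(FPKM + 0.5), so that fold changes of low genes are understated. For single receptors the group means of log2 values were also permuted exactly (two-sided, smallest possible p 0.00303). The fit was tested on simulated data. Exons, coding sequences and identity come from RefSeq on Sscrofa11.1, which holds 30335 of the 30376 identifiers. Python 3.11.15, pandas 2.3.3, SciPy 1.17.1 and matplotlib 3.10.9 were used. The rule for named genes took all 10 receptors, called genes, the 2 highest genes of each list, stated partners and the nearest genes. LY86, FN1, FABP4, LEP, TCF4, TNF, IL1B, IL6, IFNB1 and TWF2 were named after their values were seen. The members, lists and tests were chosen with earlier results of these data known. Alternatives changed pseudocount, filter, scaling, weights, spread estimate, replicate block, name letter and wounds, and a GC correction was added after seeing the data. TASL, HAS2 and CAMP of the pathway lists and CXCR1, FPR1, CLEC4C, CD1C and KRT14 of the marker lists had no match.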

Additional observations from a re-analysis of the deposited data

Results flagged for a closer look

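In groups of 4 to 10 wounds, a value was listed when its gap to the nearest other value was too large a part of the group's range (Dixon's criterion at 95%). Of the 62 groups checked, 4 met it, 3 of them among the 20 groups of receptors, and chance alone flags about 1 in 20 groups. TLR3 in diabetic replicate 2 was 4.41 FPKM, with the next highest diabetic wound at 2.80. TLR6 in diabetic replicate 6 was 1.10 FPKM, with the next lowest at 1.75. TLR8 in diabetic replicate 7 was 2.26 FPKM, with the next highest at 1.67. CCL2 in non-diabetic replicate 3 was 150.1 FPKM, with the next highest at 51.3. The causes were not tested.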

How the results depend on the processing

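The count of called receptors was 0 under all 25 alternatives. TLR3, TLR4, TLR5, TLR6, TLR8 and TLR9 kept their direction under all of them, while TLR1, TLR2 and TLR7 changed sign in 3, 3 and 1, with log2 fold changes of at most 0.19 in size. TLR5 ranged from -0.78 to -0.37 (adjusted p 0.0621 to 0.724, limma) and TLR6 from 0.24 to 0.41 (adjusted p 0.0517 to 0.551, limma), and TLR9 from -0.55 with voom to -0.17 with library weights. The 3 called pathway genes became 1 with no filter on low values, 1 without diabetic replicate 4 and non-diabetic replicate 1, and 0 with the replicate block, and leaving out 1 wound gave 1 to 3. They became 4 with upper quartile scaling and with voom, where FN1 joined them, and with library weights, where LY86 did. With quantile normalization FN1 took the place of TRIL, and with the name letter as a covariate the count was 2, without TRIL. CD36, CD14 and TRIL kept their call in 24, 13 and 15 of the 25. The replicate numbers did not pair the wounds (correlations of deviations -0.27, 0.22, 0.07 and -0.48, and no wound correlated best with its own number), and with the block 11 genes of all tested were called higher and 5 lower, against 188 and 231 without it. Library weights gave 406 and 416 over all genes. The count of receptors with an exact permutation p under 0.05 fell from 2 to 1 with a pseudocount of 0.1 and to 1 without diabetic replicate 4 and non-diabetic replicate 1, and leaving out 1 wound gave 0 to 2, with 0 without non-diabetic replicate 1. Ranking by reads without length kept 4 of 10 places. The causes were not tested. Low reads limit TLR10 and TLR9, and 1 minipig per group limits every comparison.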
